A study of Mus musculus with 12 samples.

Results

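The genes described here are 7 genes of the T helper type 1 (Th1) program: the transcription factor genes Tbx21, Eomes and Runx3, the cofactor gene Hopx, the cytokine gene Ifng, and the IL-12 receptor chain genes Il12rb1 and Il12rb2. They were chosen by name as regulators and receptors of the Th1 lineage, with no threshold on their values but with earlier results of these data known. They are 7 of the 40840 gene symbols counted in every library. All 7 were among the 13570 genes tested after the low-count filter. RNA was sequenced from donor OTII cells, which are CD4+ T cells carrying a transgenic T-cell receptor for an ovalbumin (OVA) peptide, after priming in WT (C57BL/6J) or Il6-/- (B6.129S2-IL-6tm1Kopf/J) recipients. All recipients received the same i.n. treatment, house dust mite (HDM) extract with added LPS, together with OVA, and the OTII cells were sorted from the mediastinal lymph nodes on Day 3 or Day 5, as the labels number the days. There were 3 libraries in each of 4 groups, which are WT Day 3, Il6-/- Day 3, WT Day 5 and Il6-/- Day 5, and 12 libraries in all. The deletion was carried by every cell of the Il6-/- host, whereas the donor cells were OTII cells with an intact Il6 gene in all 4 groups. The 0 to 5 Il6 reads of a library therefore do not check the labels. The ages of the mice, and whether a library came from 1 mouse or from pooled mice, are not given in the sources used here. The p-values thus measure the spread between these libraries, which may be technical. Blood is the tissue in the sample labels, but the series description names the lymph nodes and was followed here, and the LPS is taken from the study's methods.

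T-bet, the product of Tbx21, is the defining transcription factor of Th1 cells, and Eomes is a related T-box factor that is more prominent in CD8 T cells and NK cells. Interferon gamma and IL-12, which signals through STAT4, can both raise T-bet, and T-bet in turn favors Il12rb2 and Ifng. Runx3 partners with T-bet at the Ifng gene, and Hopx, a small homeodomain protein that does not bind DNA itself, is a known T-bet target in Th1 cells. The IL-12 receptor needs both chains. Il12rb1 is also part of the IL-23 receptor, while Il12rb2 carries the STAT4-recruiting tail and is lost from cells committed to the Th2 lineage.

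In GENCODE vM39 on GRCm39, Tbx21 lies on the minus strand at chr11:96988897-97006158, with 6 exons in its canonical transcript. Ifng is on the plus strand at chr10:118276951-118281797, with 4 exons, and Il12rb2 on the minus strand at chr6:67268302-67353172, with 16 exons. The 250 bases before the annotated start of these 3 genes are shown because Tbx21 had the smallest p-value between the recipients on Day 3, and the other 2 encode the cytokine and the inducible receptor chain of the same circuit. Capitals mark matches to the STAT motif TTCNNNGAA, found by searching both strands.
Tbx21 (chr11:97006159-97006408, minus strand, GRCm39): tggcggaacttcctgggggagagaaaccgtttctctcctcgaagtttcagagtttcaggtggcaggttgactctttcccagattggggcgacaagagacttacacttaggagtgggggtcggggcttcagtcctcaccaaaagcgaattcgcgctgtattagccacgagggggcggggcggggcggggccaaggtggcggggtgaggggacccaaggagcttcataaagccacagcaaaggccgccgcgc
Ifng (chr10:118276701-118276950, plus strand, GRCm39): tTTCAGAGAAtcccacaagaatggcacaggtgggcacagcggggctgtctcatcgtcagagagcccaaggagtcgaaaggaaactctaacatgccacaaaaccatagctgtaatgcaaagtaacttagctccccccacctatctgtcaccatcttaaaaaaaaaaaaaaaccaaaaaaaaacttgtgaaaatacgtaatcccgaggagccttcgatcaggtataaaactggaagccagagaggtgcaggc
Il12rb2 (chr6:67353173-67353422, minus strand, GRCm39): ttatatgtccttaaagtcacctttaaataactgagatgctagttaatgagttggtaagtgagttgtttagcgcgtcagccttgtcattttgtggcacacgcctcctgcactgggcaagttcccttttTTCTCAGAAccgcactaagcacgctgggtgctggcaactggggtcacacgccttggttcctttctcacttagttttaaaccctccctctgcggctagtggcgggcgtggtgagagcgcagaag

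The STAT motif was found once before Ifng, starting 249 bases upstream of the start, and once before Il12rb2, 123 bases upstream. It was not found in the same window of the other 5 genes. Of 21734 windows of this length before annotated genes, 7.70% hold the motif. A T-box half-site (GGTGTGA, in 3.23% of the windows), a Runx motif (TGTGGT, 13.0%) and an AP-1 motif (TGANTCA, 6.18%) were found in none of the 7. These matches describe letters in the genome only, since no binding was measured.

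The sorted cells expressed the defining markers of CD4 T cells. The 8 CD4 T cell markers examined summed to 3440 to 4037 CPM (reads on the gene per M reads on all genes, with TMM-scaled library sizes) on Day 3 and 5579 to 6764 CPM on Day 5, with none at 0. Between 16125947 and 26111657 reads were counted per library. The days also differed in the libraries themselves: 60.2% to 62.2% of the reads fell on genes on Day 3 against 52.5% to 56.7% on Day 5, and mitochondrial genes took 0.789% to 1.08% of the counts against 1.47% to 2.37%. These values move with every difference between the days given below, and their part in it was not tested. Upper-quartile scaling of the library sizes moved the median log2 change of all genes between the days by 0.20 in WT and 0.23 in Il6-/- recipients relative to TMM scaling, the scaling used throughout.

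On Day 3, OTII cells in Il6-/- recipients had 5.60-fold more Tbx21 RNA and 1.59-fold more Hopx RNA than those in WT recipients, and these 2 of the 7 genes passed the test (13.7% of all tested genes passed, 7.52% as higher and 6.19% as lower). Of all genes that passed, 54.9% were higher, against 39.3% without scaling of the library sizes. The number of the 7 that passed was 4 in DESeq2, without the low-count filter or with the replicate block. The share of all genes in those settings is not given here, so the number has no background. With 1 library left out, 1 to 4 of the 7 passed, while 942 to 2042 of all genes did, against 1861 with all 12 libraries. To pass means a false discovery rate (FDR) under 0.05 in edgeR's quasi-likelihood test over all tested genes. For all 7 genes, the 3 Il6-/- libraries lay above the 3 WT libraries, whereas 20.5% of all tested genes showed that pattern, 15.7% the opposite one and 36.2% either. Without scaling of the library sizes, 5 of the 7 genes showed it. With a limit of at least 2-fold added, 1 of the 7 passed, Tbx21 (2.74% of all tested genes). On Day 5, Il12rb1 alone passed, at 1.42-fold higher in Il6-/- recipients (4.61% of all tested genes passed, 1.27% as higher and 3.35% as lower), and at 2-fold or more none of the 7 did (1.14% of all tested genes). The Il6-/- libraries lay above the WT libraries without overlap for 3 genes, namely Tbx21, Ifng and Il12rb1, compared with 8.65% of all tested genes (11.0% the opposite way and 19.6% either way). With the replicate block, 2 of the 7 passed on Day 5, Il12rb1 and Tbx21, while 1592 of all genes passed, against 626 without the block. In bulk RNA, fewer cells expressing a gene and less RNA per cell cannot be told apart.

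**Figure D1:**
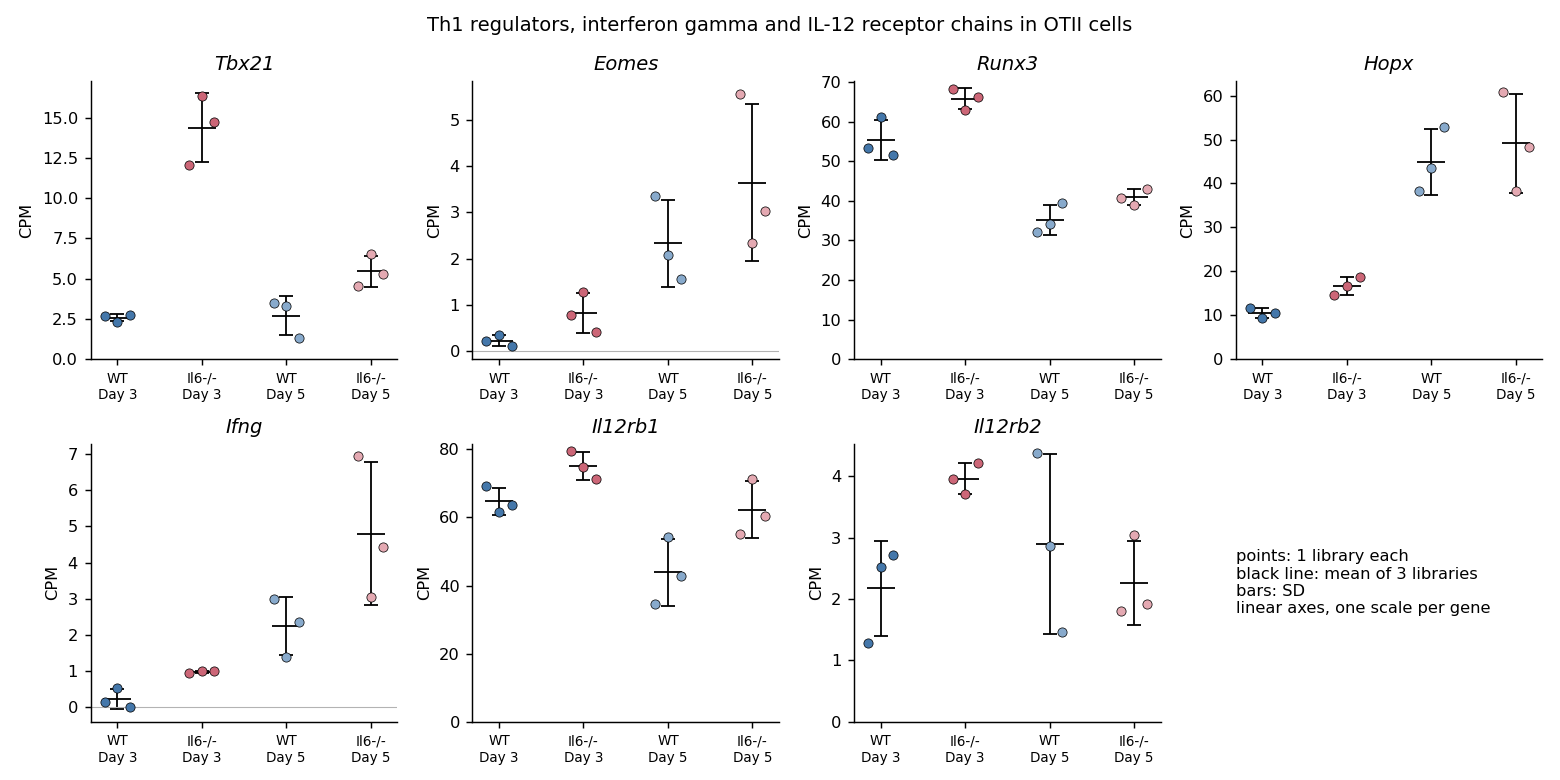
CPM of the 7 genes (vertical axes, linear, 1 scale per gene) in WT and Il6-/- recipients on Day 3 and Day 5. Each point is 1 library, and the black line and bars give the mean and SD of 3 libraries. Tbx21 stands at 12.1 to 16.3 CPM in the Il6-/- Day 3 libraries and at or below 6.50 CPM in the other 9, while Eomes, Hopx and Ifng are higher on Day 5 than on Day 3 in both recipients.

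Tbx21 had the smallest p-value of the 7 genes between the recipients on Day 3. On that day the WT libraries had 2.65, 2.32 and 2.71 CPM and the Il6-/- libraries had 12.1, 16.3 and 14.7 CPM. Every Il6-/- library thus exceeded every WT library by more than 4 times. The log2 fold change was 2.49 ± 0.29 (SE, 95% CI 1.87 to 3.10, FDR = 8.7e-05), which placed Tbx21 16th by p-value among the 7066 genes with higher values in Il6-/- recipients. Leaving out any of the 12 libraries kept the change between 2.39 and 2.60 and past the threshold.

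On Day 5 Tbx21 read 3.51, 3.27 and 1.32 CPM for WT and 4.55, 6.50 and 5.31 CPM for Il6-/- recipients. The libraries again did not overlap, but the WT libraries were spread widely, with replicate 3 well below the other two. The log2 fold change of 1.02 ± 0.29 (95% CI 0.40 to 1.64) missed the threshold (FDR = 0.061). With replicate number as a block, it passed (1.08, FDR = 0.021), as it did in DESeq2 (FDR = 0.0061), but not in limma-voom (FDR = 0.069) or in the 6 Day 5 libraries alone (FDR = 0.20). With 1 library left out it ranged from 0.68 to 1.26 and passed in 1 of 12 fits. Over all tested genes, same-numbered libraries of the 2 recipients deviated weakly together on Day 5 (r of 0.129 to 0.243). For Tbx21 itself, replicate 1 was the highest of the WT libraries and the lowest of the Il6-/- libraries.

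The recipients' difference in Tbx21 was smaller on Day 5 than on Day 3 by 1.47 ± 0.41 on the log2 scale (95% CI of the interaction -2.34 to -0.60), at an FDR of 0.051. The interaction passed with the replicate block (FDR = 0.030) but not in limma-voom (FDR = 0.092). Of the 12 fits with 1 library left out it passed only in that without WT Day 5 replicate 3 (-1.80, FDR = 0.0029), and the FDR reached 0.13 in the others. Over time, Tbx21 fell 2.64-fold in Il6-/- recipients (log2 fold change -1.40 ± 0.27, FDR = 4.3e-04). In WT recipients its change between the days was 0.07 ± 0.30 (95% CI -0.57 to 0.71, FDR = 0.86).

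Eomes was close to the limit of detection on Day 3, with 2 to 7 reads per WT library and 9 to 24 per Il6-/- library. Its CPM were 0.234, 0.346 and 0.109 in WT and 0.792, 1.27 and 0.427 in Il6-/- recipients. The groups did not overlap, although the nearest libraries were close. The log2 fold change was 1.80 ± 0.59 (95% CI 0.54 to 3.07, FDR = 0.057), and it passed in DESeq2 (FDR = 0.021) but not in limma-voom (FDR = 0.19). With 1 library left out it ranged from 1.36 to 2.17 and passed in 2 of 12 fits, those without replicate 3 of the Il6-/- Day 3 group (FDR = 0.037) or replicate 1 of the Il6-/- Day 5 group (FDR = 0.046).

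On Day 5 Eomes had risen to 3.36, 2.08 and 1.55 CPM for WT and 5.56, 2.34 and 3.02 CPM for Il6-/- recipients. Each Day 5 library exceeded every Day 3 library of its recipient genotype. The rise was 9.78-fold in WT (log2 3.29 ± 0.56, FDR = 1.5e-04) and 4.39-fold in Il6-/- recipients (log2 2.13 ± 0.49, FDR = 0.0014). The recipients overlapped on Day 5 (log2 0.65 ± 0.45, 95% CI -0.31 to 1.60, FDR = 0.47). Parts of 2 long noncoding genes on the other strand, Gm33408 and Gm33460, overlap the Eomes exons. The counting ignored strand, so these reads could not be assigned, but the 2 genes had at most 9 reads in any library.

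Runx3 was among the most expressed of the 7 genes and declined between the days. In WT recipients it read 53.5, 61.2 and 51.7 CPM on Day 3 and 32.1, 34.2 and 39.5 CPM on Day 5. In Il6-/- recipients it read 68.2, 63.1 and 66.4 CPM on Day 3 and 40.8, 39.0 and 43.1 CPM on Day 5. The days did not overlap in either recipient genotype, and the fall was 1.57-fold in WT (log2 -0.65 ± 0.10, FDR = 4.7e-05) and 1.61-fold in Il6-/- recipients (log2 -0.69 ± 0.10, FDR = 2.3e-05).

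The differences in Runx3 between recipients were small on both days and missed the threshold. They were 0.25 ± 0.10 on Day 3 (95% CI 0.04 to 0.46, FDR = 0.11) and 0.22 ± 0.10 on Day 5 (95% CI 0.01 to 0.43, FDR = 0.24). Their difference was -0.03 ± 0.14 (95% CI -0.33 to 0.26), and its sign turned under upper-quartile scaling and without scaling.

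Hopx rose between the days in both recipients, and on Day 5 it was the most expressed of the 7 per exon length. In WT recipients it went from 11.7, 9.30 and 10.5 CPM on Day 3 to 38.2, 43.6 and 52.9 CPM on Day 5, and in Il6-/- recipients from 14.7, 16.7 and 18.7 CPM to 60.8, 38.3 and 48.4 CPM. The lowest Day 5 library had more than 2 times the highest Day 3 library. The increase was 4.26-fold in WT (log2 2.09 ± 0.17, FDR = 1.3e-07) and 2.94-fold in Il6-/- recipients (log2 1.56 ± 0.17, FDR = 1.3e-06).

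On Day 3 the Hopx libraries of the recipients did not overlap, and the log2 fold change was 0.66 ± 0.17 (95% CI 0.29 to 1.04, FDR = 0.019). This call was lost in limma-voom (FDR = 0.070) and without WT Day 3 replicate 2 (0.092) or 3 (0.058) or Il6-/- Day 3 replicate 2 (0.055) or 3 (0.076). On Day 5 the recipients overlapped (0.13 ± 0.16, 95% CI -0.21 to 0.47, FDR = 0.72).

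Alveolar type 1 cells of the lung also express Hopx, so lung epithelial markers were examined beside it. The 10 markers summed to 6.24 to 11.1 CPM for WT and 6.18 to 22.1 CPM for Il6-/- recipients on Day 3, and to 8.0 to 36.0 CPM and 12.5 to 20.8 CPM on Day 5. Of the 6 that were tested, 1 was higher in Il6-/- recipients on Day 3 (7.52% of all tested genes). This was Sftpc, which had 1, 176 and 9 reads in these libraries and 4, 0 and 0 in WT, so that 1 library held most of them. From Day 3 to Day 5, 3 rose and 1 fell in WT recipients (56.7% of all tested genes passed), and 1 rose in Il6-/- recipients (60.5%). The part of lung cells in the Hopx values was not tested. Of the Hopx exons, 864 of 2220 bases overlap Hopxos on the other strand, which had at most 19 reads in a library.

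Ifng was barely detected on Day 3. The WT libraries had 4, 11 and 0 reads (0.156, 0.544 and 0 CPM), and the count of 0 allows up to 0.163 CPM, counting error only. The Il6-/- libraries had 18, 19 and 21 reads, or 0.950, 1.01 and 0.995 CPM, all above the WT libraries and close to each other. The fitted log2 fold change was 2.04 ± 0.66 (95% CI 0.64 to 3.45, FDR = 0.053), past the threshold in DESeq2 (FDR = 0.0051). It ranged from 1.53 to 3.38 when 1 library was left out, with the highest value without WT Day 3 replicate 2 (FDR = 0.015), and it passed in 2 of these 12 fits and not in limma-voom (FDR = 0.062).

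On Day 5 Ifng read 3.00, 1.40 and 2.35 CPM for WT and 6.93, 3.05 and 4.42 CPM for Il6-/- recipients. The lowest Il6-/- library lay just above the highest WT library, and the log2 fold change of 1.09 ± 0.50 (95% CI 0.03 to 2.15) did not pass (FDR = 0.24). The FDR was 0.13 with the replicate block. Ifng rose between the days in both recipients, by 3.23 ± 0.63 on the log2 scale in WT (FDR = 4.7e-04) and by 2.28 ± 0.53 in Il6-/- recipients (FDR = 0.0017). Of its exons, 336 of 1295 bases are shared with the annotated gene Gm49751, which was not among the symbols counted under that name.

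Il12rb1 was well expressed in all groups. On Day 3 it read 69.2, 61.6 and 63.6 CPM for WT and 79.4, 74.9 and 71.2 CPM for Il6-/- recipients. These libraries did not overlap, yet the log2 difference was only 0.21 ± 0.13 (95% CI -0.07 to 0.50, FDR = 0.34). On Day 5 it read 34.7, 54.2 and 42.7 CPM for WT and 55.1, 71.3 and 60.4 CPM for Il6-/- recipients, with less than 1 CPM between the nearest libraries.

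The Day 5 difference in Il12rb1 was 0.51 ± 0.14 on the log2 scale (95% CI 0.22 to 0.80, FDR = 0.047). It passed in 3 of the 12 fits that left out a library, with FDR values from 0.017 to 0.20, and it did not pass when the 6 Day 5 libraries were fitted alone (FDR = 0.14). Il12rb1 fell 1.48-fold from Day 3 to Day 5 in WT recipients (log2 -0.56 ± 0.14, FDR = 0.0025). In Il6-/- recipients the change was -0.27 ± 0.13 (95% CI -0.56 to 0.01, FDR = 0.093), and it was -0.05 with upper-quartile scaling (FDR = 0.76) and -0.33 without the low-count filter (FDR = 0.0097). It passed in 3 of 12 fits with 1 library left out, those without replicate 1 or 2 of WT Day 5 or replicate 2 of Il6-/- Day 5.

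Il12rb2 was expressed far below its partner chain. On Day 3 it read 1.29, 2.52 and 2.71 CPM for WT and 3.96, 3.71 and 4.22 CPM for Il6-/- recipients. The Il6-/- libraries were tightly grouped above the WT libraries, and the log2 fold change was 0.88 ± 0.39 (95% CI 0.05 to 1.70, FDR = 0.16). On Day 5 it read 4.38, 2.86 and 1.46 CPM for WT and 1.80, 3.05 and 1.93 CPM for Il6-/- recipients, with the Il6-/- libraries inside the WT range (log2 -0.36 ± 0.39, 95% CI -1.19 to 0.47, FDR = 0.68).

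Between the days, Il12rb2 differed by 0.42 ± 0.39 in WT (FDR = 0.37) and by -0.82 ± 0.39 in Il6-/- recipients (FDR = 0.082), where all Day 5 libraries lay below all Day 3 libraries. Serbp1, an abundant gene on the other strand, overlaps 1519 of the 3794 exon bases of Il12rb2 and had 6890 to 15964 reads per library. Serbp1 averaged 616 CPM for WT and 746 CPM for Il6-/- recipients on Day 3, and 388 and 400 CPM on Day 5. Since counting ignored strand, reads on the shared bases may have been assigned to neither gene. Il12rb2 counts are therefore uncertain, and how the overlap affected them was not tested.

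**Figure D2:**
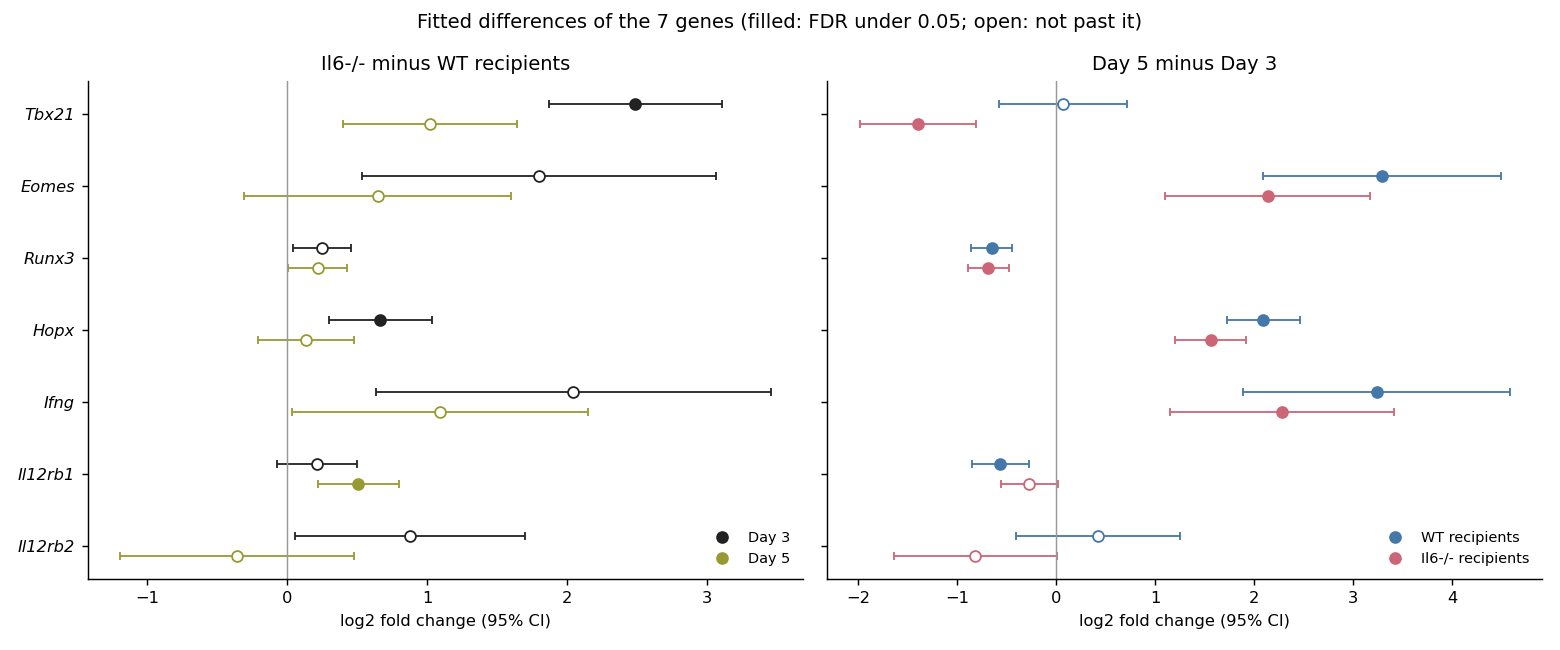
Fitted log2 fold changes (horizontal axes) with 95% confidence intervals of the 7 genes, for Il6-/- minus WT recipients on each day and for Day 5 minus Day 3 in each recipient genotype. Filled points passed an FDR of 0.05. On Day 3 all 7 points lie to the right of 0, with Tbx21 at 2.49, and between the days Eomes, Hopx and Ifng lie to the right and Runx3 to the left in both recipients.

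Between the days, 5 of the 7 genes passed in WT recipients, 3 higher and 2 lower on Day 5 (56.7% of all tested genes passed, 29.5% higher and 27.1% lower). In Il6-/- recipients 5 passed as well, 3 higher and 2 lower (60.5%, 30.4% and 30.1%), with 5 to 7 when 1 library was left out. At 2-fold or more, 3 of the 7 passed in WT (22.1% of all tested genes) and 4 in Il6-/- recipients (25.9%). The libraries of the days did not overlap for 5 of the 7 in WT, 3 higher and 2 lower on Day 5 (63.3% of all tested genes, 33.4% and 29.9%), and for 6 in Il6-/- recipients, 3 higher and 3 lower (65.8%, 33.1% and 32.7%). Eomes, Hopx and Ifng were the 3 that rose in each. Runx3 fell in each, beside Il12rb1 in WT and Tbx21 in Il6-/- recipients. The 2 comparisons between the days, and the 2 between recipients, share groups with one another, so their results are not independent.

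None of the 7 genes passed the genotype by day interaction in the main edgeR model (4.92% of all tested genes passed, 1.8% with positive and 3.12% with negative values). Only Tbx21 did so in DESeq2 (FDR = 0.0077). The same held in edgeR with the replicate block (FDR = 0.030), without the low-count filter (FDR = 0.0026) and with a filter at 1 CPM (FDR = 0.0498). In DESeq2, with the block and without the filter, 1132, 1564 and 1300 of all genes passed, against 668 in the main model. At an unadjusted p under 0.05 in edgeR's model there were 3, namely Tbx21, Hopx and Il12rb2. By p-value they ranked 430th, 1420th and 1428th among the 6718 genes with negative values, so at least 1428 of these genes met this limit. The share of all tested genes that met it is not given here. The interaction values of these 3 were negative, at -1.47, -0.53 and -1.24. That of Il12rb1 was 0.29 ± 0.19 (FDR = 0.42), those of Eomes and Ifng were -1.16 ± 0.74 (FDR = 0.41) and -0.95 ± 0.82 (FDR = 0.56).

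Levels of different genes were compared as CPM per kilobase of exon. On Day 3 in WT recipients, Runx3 (11.1 ± 1.00, mean ± SD, n = 3) and Il12rb1 (10.4 ± 0.634) led and overlapped. Hopx (4.73 ± 0.542) and Tbx21 (1.03 ± 0.0843) followed without overlap, and then Il12rb2 (0.573 ± 0.204), Ifng (0.180 ± 0.216) and Eomes (0.0553 ± 0.0286), each of which overlapped the next. The order was the same in Il6-/- recipients on Day 3, where Tbx21 stood at 5.78 ± 0.861, and only the leading pair, Runx3 and Il12rb1, overlapped.

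On Day 5 Hopx came first in both recipients, at 20.2 ± 3.35 in WT and 22.1 ± 5.06 in Il6-/- recipients. Il12rb1 and Runx3 came next, at 7.05 ± 1.58 and 7.03 ± 0.754 in WT, where they overlapped, and at 10.01 ± 1.33 and 8.17 ± 0.413 in Il6-/- recipients, where they did not. Ifng moved to the place after them, at 1.74 ± 0.622 in WT and 3.71 ± 1.52 in Il6-/- recipients, and overlapped Tbx21 (1.09 ± 0.484 and 2.19 ± 0.395) in both. In WT the last 4 genes each overlapped the next, down to Il12rb2 (0.764 ± 0.385) and Eomes (0.561 ± 0.224). In Il6-/- recipients Eomes (0.876 ± 0.408) and Il12rb2 (0.595 ± 0.181) came last and overlapped. These lengths include exon bases shared with other counted genes, in which unstranded counting may assign no reads. With the shared bases left out, an alternative chosen after the data were seen, Il12rb2 stood at 0.956 and 1.74 on Day 3 and at 1.27 and 0.992 on Day 5 in WT and Il6-/- recipients. It then overlapped Tbx21 on Day 3 in WT and came before it on Day 5 in WT, still overlapping, and it stayed last in Il6-/- recipients on Day 5, overlapping Eomes (1.03). Hopx moved up in the order on Day 3 in Il6-/- recipients, at 12.3 between Runx3 and Il12rb1, and overlapped both.

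**Figure D3:**
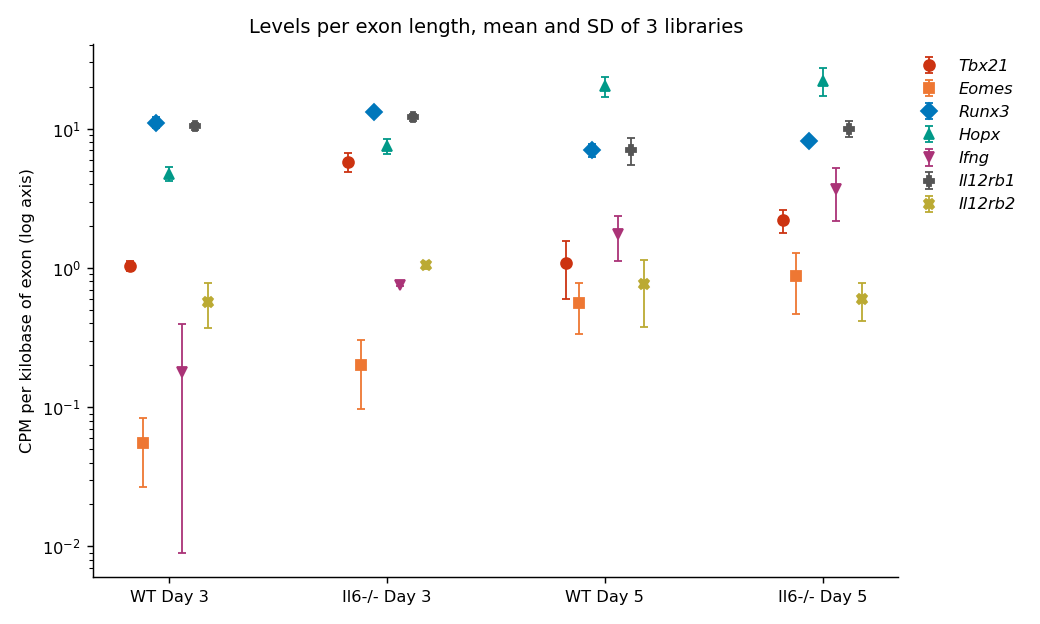
Levels per exon length of the 7 genes in the 4 groups, as CPM per kilobase of exon, shared bases included, on a log axis. Points are means and bars SD of 3 libraries, and the lower bar of Ifng on WT Day 3 is cut short of 0 because its SD exceeds its mean. On Day 3 Tbx21 stands at 1.03 in the WT group and 5.78 in the Il6-/- group, and Hopx leads in both recipients on Day 5.

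Markers of other cells were examined beside these values. Between the recipients on Day 3, 7.52% of all tested genes passed as higher and 6.19% as lower. The 13 markers of NK cells, type 1 innate lymphoid cells and CD8 T cells, which can express Tbx21, Eomes and Ifng, summed to 73.6 to 87.8 CPM for WT and 96.4 to 127 CPM for Il6-/- recipients on Day 3, and to 116 to 150 and 107 to 130 CPM on Day 5. On Day 3, 1 of the 8 tested was higher in Il6-/- recipients, Klrb1c, which encodes NK1.1 (4.82 and 20.9 CPM on average, log2 2.11, FDR = 7.7e-06), and the other 7 did not pass. The NK markers Ncr1 and Klre1 were at or near 0, with at most 0.0390 and 0.0509 CPM in any library. Other markers of the list were detected, with Cd160 at 7.53 to 36.4 CPM, Tyrobp at 1.03 to 4.51 CPM and Fcer1g at 0.902 to 3.15 CPM. Klrd1, Klrk1, Gzma, Prf1 and Xcl1 had at most 1.37 CPM in any library. Of the CD8 markers, Cd8b1 was at 56.3 to 84.2 CPM and Cd8a at 0 to 1.70 CPM. On Day 5 Klrb1c averaged 33.1 CPM for WT and 21.9 CPM for Il6-/- recipients, the reverse order. From Day 3 to Day 5, 2 of the 8 tested rose and 1 fell in WT recipients (56.7% of all tested genes passed). In Il6-/- recipients 3 rose and 1 fell (60.5%). Cd160 rose in both, by 1.72 and 1.17 on the log2 scale.

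The B cell markers summed to 6.83 to 8.96 CPM for WT and 14.1 to 14.98 CPM for Il6-/- recipients on Day 3, and to 9.61 to 11.7 and 12.7 to 17.3 CPM on Day 5, with Ms4a1, which encodes CD20, at or below 0.312 CPM in every library. On Day 3, 1 of the 5 tested was higher in Il6-/- recipients (Cd22) and 1 lower (Pax5). Myeloid and dendritic cell markers summed to 105 to 113 and 103 to 104 CPM on Day 3 and to 118 to 163 and 127 to 131 CPM on Day 5, and none of the 7 tested passed between the recipients. Regulatory T cell markers, several of which activated T cells also express, summed to 335 to 363 and 383 to 454 CPM on Day 3 and to 490 to 560 and 513 to 645 CPM on Day 5. Of these 6, 3 were higher and 1 lower in Il6-/- recipients on Day 3. The cells had been sorted by B220, CD4, CD44 and CD45.1, and the part of other cells in the members' differences was not tested.

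Around the 7 genes, 73 genes of the same pathway in 5 lists were followed, of which 67 were tested. On Day 3, 14 of these were higher and 12 lower in Il6-/- recipients, while of all tested genes 13.7% passed. On Day 5, 8 were higher and 9 lower, against 4.61% of all tested genes. The 17 that passed on Day 5 were 27 with the replicate block and 7 to 18 with 1 library left out.

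Th1 effector products and surface molecules showed the most genes with higher values in Il6-/- recipients on Day 3. Of 19 tested, 7 were higher, 1 was lower and 11 did not pass, with a median log2 fold change of 0.42 (0.01 over all tested genes). Of all tested genes, 7.52% passed as higher and 6.19% as lower on that day. Nkg7, a cytotoxic granule membrane protein, averaged 3.67 CPM for WT and 22.7 CPM for Il6-/- recipients (log2 2.64 ± 0.28, FDR = 3.7e-05). Lta, the cytokine lymphotoxin alpha, rose from 42.7 to 89.3 CPM (log2 1.06, FDR = 1.3e-05). Cxcr3, a chemokine receptor that T-bet is known to induce, was at 23.8 and 53.6 CPM (log2 1.17, FDR = 0.0091), and Fasl, the ligand of the death receptor Fas, at 1.12 and 2.75 CPM (log2 1.28, FDR = 0.021). The costimulatory receptor gene Cd226 (log2 0.62, FDR = 2.0e-04) and the integrin gene Itgb1 (log2 0.42, FDR = 0.030) were also higher. The lower gene, named after its value was seen, was the selectin ligand gene Selplg (log2 -0.38, FDR = 0.031). On Day 5, 2 of the 19 passed (4.61% of all tested genes, 1.27% as higher), both higher, namely Nkg7 (log2 1.92, FDR = 0.0022) and Lta (log2 0.39, FDR = 0.037). Between the days, 8 rose and 1 fell in WT recipients (56.7% of all tested genes passed). In Il6-/- recipients 9 rose and 3 fell (60.5%). Fasl rose by 4.27 and 2.79 on the log2 scale. Havcr2, the inhibitory receptor Tim-3 of Th1 cells, fell by 3.09 in WT and by 2.5 in Il6-/- recipients.

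Genes of the receptors that feed the Th1 circuit, and of their signaling, did not share that direction. Of 15 tested on Day 3, 3 passed (13.7% of all tested genes, 6.19% as lower), all lower in Il6-/- recipients, with a median of -0.21. They were Ifngr1, the ligand-binding chain of the interferon gamma receptor (111 CPM in WT, 89.5 CPM in Il6-/- recipients, log2 -0.32, FDR = 0.033), Jak2, the kinase bound to Il12rb2 (40.2 and 30.1 CPM, log2 -0.41, FDR = 0.015), and Il23r, the partner of Il12rb1 in the IL-23 receptor (2.59 and 0.137 CPM, log2 -4.19, FDR = 0.0013). At an unadjusted p under 0.05 in edgeR's model, 1 of the 15 was higher and 11 were lower. In the effector list 8 were higher and 1 lower at this limit, and among interferon gamma-induced genes 5 and 2. Among further Th1 regulators these counts were 2 and 5, and among regulators of other lineages 2 and 5. Il12rb2, which also met this limit on Day 3, ranked 1842nd by p-value among the 7066 genes with higher values in Il6-/- recipients. At least 1842 of those genes therefore met it. The share of genes with lower values at this limit is not given, so the counts of lower genes have no background. Whether the lists differ in direction at this limit was not tested. On Day 5, 1 of the 15 was higher, Tyk2, the kinase bound to Il12rb1 (126 and 161 CPM, log2 0.36, FDR = 0.045), and 1 lower, Il23r. Of all tested genes, 1.27% passed as higher and 3.35% as lower on Day 5.

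Between the days, 10 of these 15 genes were higher and 2 lower on Day 5 in WT recipients (56.7% of all tested genes passed). In Il6-/- recipients 11 passed, all higher (60.5% of all tested genes passed, 30.4% as higher). Jak2 rose by 1.33 in WT and 1.61 in Il6-/- recipients on the log2 scale (FDR = 8.0e-08 and 1.5e-08), and Stat4, the IL-12 signal transducer, by 0.54 and 0.69 (FDR = 5.6e-05 and 4.0e-06). Il27ra, a receptor chain for IL-27, which can induce T-bet, rose by 1.00 and 1.16 (FDR = 2.9e-07 and 6.2e-08).

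Of 13 tested partners and further regulators of Th1 differentiation, 2 were higher and 4 lower in Il6-/- recipients on Day 3, with a median of -0.07. The shares of all tested genes were 7.52% higher and 6.19% lower on Day 3, and 1.27% and 3.35% on Day 5. Irf8, an interferon regulatory factor, averaged 52.4 CPM for WT and 120 CPM for Il6-/- recipients (log2 1.19, FDR = 5.9e-05), and Bhlhe40, a repressor that supports interferon gamma production in Th1 cells, 62.4 and 135 CPM (log2 1.11, FDR = 0.031). Satb1, a chromatin organizer of T cells, was lower (log2 -1.05, FDR = 3.0e-04), as were the T-cell kinase Txk (-0.91), Ets1 (-0.48), a T-bet cofactor, and Runx1 (-0.39), the paralog of Runx3. On Day 5, 1 was higher, Irf8 (log2 0.90, FDR = 0.0025), and 5 were lower, including Satb1 (-0.84, FDR = 0.0044), Id2 (-0.70, FDR = 0.011) and Cbfb (-0.66, FDR = 0.014), the shared partner of the Runx factors. Between the days, 4 rose and 3 fell in WT recipients (56.7% of all tested genes passed), and 6 rose and 4 fell in Il6-/- recipients (60.5%). Irf1 was up by 0.91 and 0.94 and Cbfb down by 0.64 and 1.22 on the log2 scale.

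Regulators of other CD4 T cell lineages moved in both directions. On Day 3, 4 of 8 were lower in Il6-/- recipients and 2 higher, with a median of -0.79 (6.19% of all tested genes passed as lower and 7.52% as higher). Tox2 (117 and 25.4 CPM, log2 -2.20, FDR = 7.7e-06), Bcl6 (-1.15) and Maf (-0.97), which act in follicular helper T cells, were among the lower genes. Gata3, the Th2 regulator, which opposes T-bet, was higher (169 and 214 CPM, log2 0.34, FDR = 0.023), as was Ahr (log2 1.08, FDR = 0.0016). Gata3 was also higher on Day 5 (log2 0.35, FDR = 0.038), when 2 were lower, including Tox2 (-0.68, FDR = 0.036). On that day 1.27% of all tested genes passed as higher and 3.35% as lower. Between the days 3 rose and 3 fell in WT recipients (56.7% of all tested genes passed), and 5 rose and 2 fell in Il6-/- recipients (60.5%).

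Of 12 interferon gamma-induced genes tested on Day 3, 3 passed (13.7% of all tested genes, 7.52% as higher), all higher in Il6-/- recipients, with a median of 0.19. These were the guanylate-binding protein gene Gbp2 (14.4 and 22.3 CPM, log2 0.63, FDR = 7.0e-04), Iigp1 (log2 0.90, FDR = 0.031) and the immunoproteasome subunit gene Psmb8 (log2 0.26, FDR = 0.020). On Day 5, 3 were higher, namely Gbp2 (log2 0.48, FDR = 0.0091), Gbp3 (1.00, FDR = 0.047) and Cd274 (0.42, FDR = 0.040). Socs1, an inhibitor of interferon signaling, was lower (38.1 and 18.6 CPM, log2 -1.03, FDR = 0.0028). Of all tested genes, 4.61% passed between recipients on Day 5, 1.27% as higher and 3.35% as lower. Between the days, 8 of the 12 passed in WT and 10 in Il6-/- recipients, all higher on Day 5, whereas 56.7% and 60.5% of all tested genes passed, 29.5% and 30.4% as higher.

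**Figure D4:**
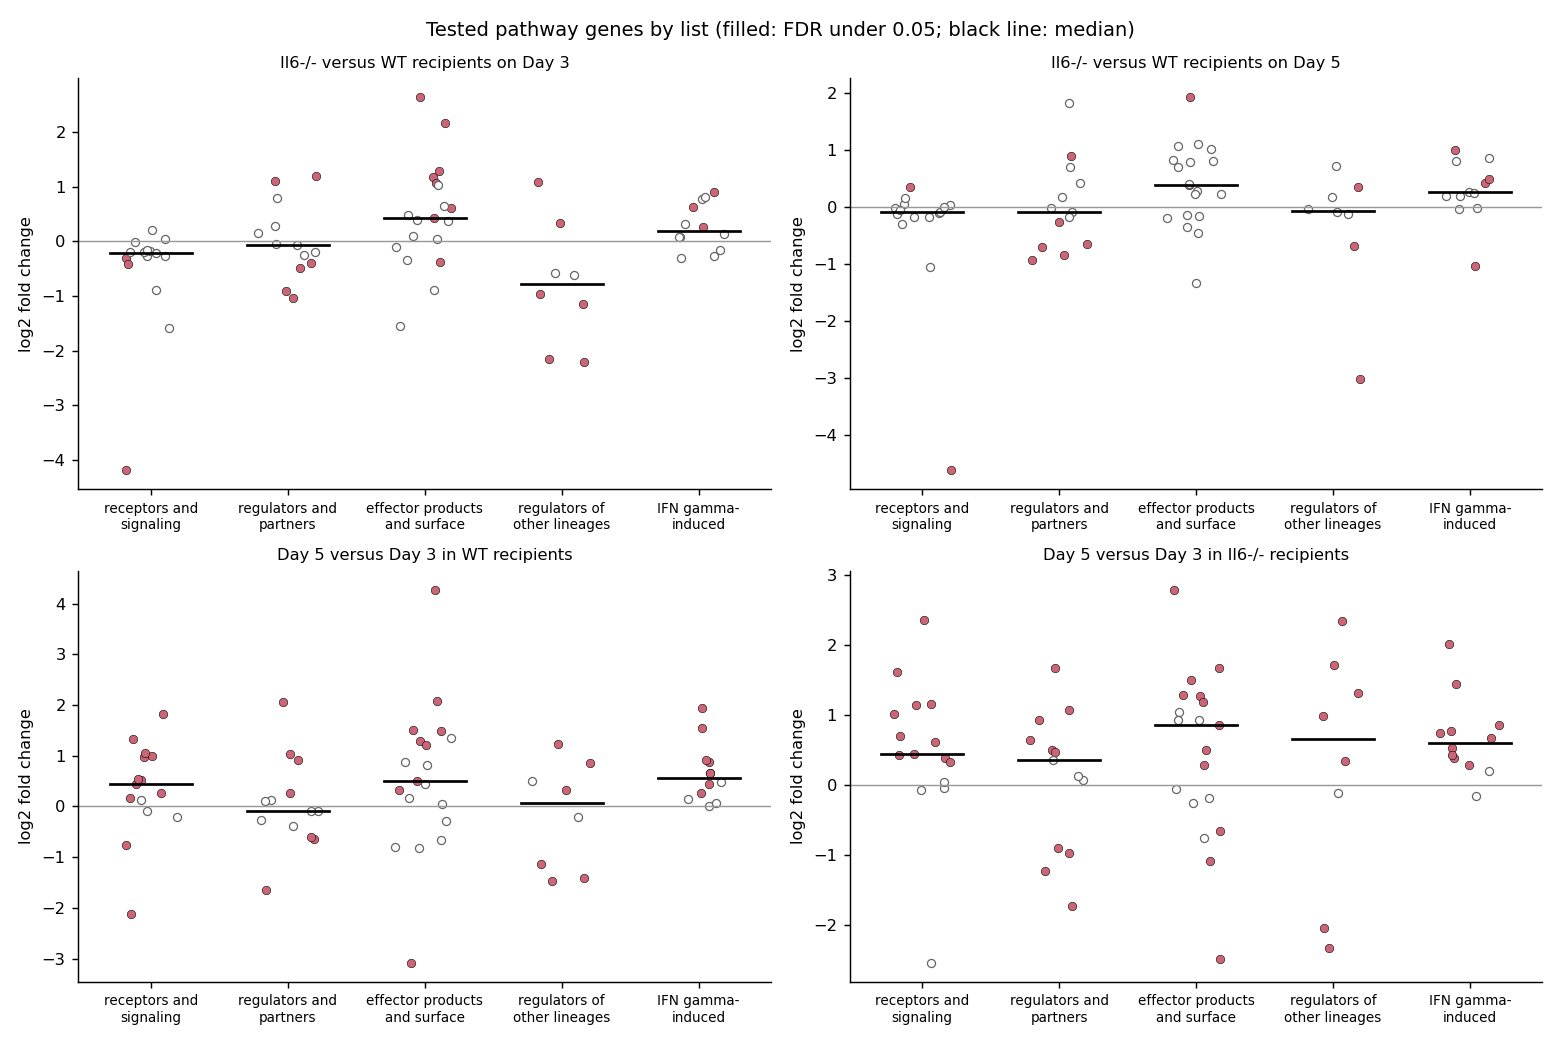
Log2 fold changes (vertical axes) of the 67 tested pathway genes in 4 comparisons, grouped by list. Each point is 1 gene, filled where its FDR is under 0.05, and the black line is the median of the list. On Day 3 the median of the effector list lies at 0.42 and that of the other lineages' regulators at -0.79, and on Day 5 they lie at 0.39 and -0.06.

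As a description, the genes whose log2 CPM over the 12 libraries followed each member most closely (Pearson's r, with group differences, day and library quality shared by all points) were as follows. Tbx21 was followed by Phtf2 (0.94), 2310061I04Rik (0.94) and Zc3h8 (0.93). Phtf2 averaged 14.3 CPM for WT and 30.1 CPM for Il6-/- recipients on Day 3, and 14.4 and 17.4 CPM on Day 5. Eomes was followed by Grap (0.97), Itga9 (0.97) and Crebl2 (0.96). Runx3 was followed by Smarcb1 (0.98), Sfr1 (0.98) and Itpripl1 (0.98). Hopx was followed by Cd38 (0.99), Gdap10 (0.98) and Sp110 (0.98). Cd38, an ectoenzyme of activated lymphocytes, averaged 1.77 and 3.13 CPM on Day 3 and 15.5 and 18.4 CPM on Day 5. Ifng was followed by Chn2 (0.95), Il15ra (0.95), the IL-15 receptor alpha chain, and Nfat5 (0.94). The genes closest to Il12rb1 were Zfp282 (0.97), Pygo2 (0.95) and Rabl2 (0.95). For Il12rb2 they were Tmem147 (0.84), Rpl10a (0.82) and Efcab9 (0.81), with lower values than for any other member.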

How the data were processed

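Reads were trimmed (Trim Galore 0.4.4), aligned to GRCm39 (STAR 2.5.2a) and counted per gene without regard to strand (HTSeq 0.6.1p1) by the authors, per their processing notes, and the deposited values used here are these raw read counts per gene. The annotation release is not given in the sources used here. The deposited table of log2 CPM was not used. HTSeq's summary lines were left out of library sizes. Low genes were removed with filterByExpr, library sizes were scaled by TMM, and 1 quasi-likelihood model with 4 group coefficients was fitted to the 12 libraries (edgeR 4.0.16, R 4.3.3), with Benjamini-Hochberg adjustment over the 13570 tested genes and an FDR threshold of 0.05. The script was tested on simulated data. Alternatives used DESeq2 1.42.0, limma 3.58.1, other scalings and filters, a 2-fold limit, a replicate block, the libraries of 1 day alone and each library left out.

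Same-numbered libraries of the 2 recipients deviated weakly together on Day 5 (r of 0.129 to 0.243 in the 3 pairs). No pairing is stated for the replicate numbers, so the main model does not pair the libraries and the replicate block is an alternative. On Day 3 the r of same-numbered libraries was lower, at 0.0325 to 0.0599. Exact permutation of 3 against 3 libraries cannot give a two-sided p below 0.1. Depth was 16125947 to 26111657 counted reads per library, and intervals on counts cover counting error only. The 7 genes and all lists were chosen with earlier results of these data known. Besides the 7, the text names at most the 6 genes with the smallest p per list and comparison among those past the threshold, genes on which a member's result turns, and the 3 genes most correlated with each member. Exon lengths and positions come from GENCODE vM39, and upstream sequences from the GRCm39 genome. Values of some genes on the lists are not reported here.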

Additional observations from a re-analysis of the deposited data

Results flagged for a closer look

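None of the 7 genes passed the genotype by day interaction in the main edgeR model. Tbx21 did in DESeq2, with the replicate block, without the low-count filter and with a filter at 1 CPM. In the main model, 7 genes of the surrounding pathway lists had a difference between Il6-/- and WT recipients that was not the same on the 2 days. The interaction, the Day 5 difference minus the Day 3 difference on the log2 scale, was 1.52 for Tox2 (FDR = 0.0053), 1.12 for Bcl6 (FDR = 0.014), 0.73 for Txk (FDR = 0.049), 0.39 for Ets1 (FDR = 0.038) and 0.35 for Tap1 (FDR = 0.042). It was -0.98 for Id2 (FDR = 0.014) and -0.68 for Lta (FDR = 0.015). Each group had 3 libraries, too few for the test for single distant samples.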

How the results depend on the processing

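Of the 7 genes on Day 3, 2 passed between recipients, against 1 with the 2-fold limit or limma-voom, 4 without the low-count filter, in DESeq2 or with the replicate block, and 1 to 4 with 1 library left out. The Day 3 counts of all genes in limma-voom, without the filter, in DESeq2 and with the block are not given here. On Day 5, 1 passed, against 0 with the 2-fold limit or in the 6 Day 5 libraries alone, 2 with RLE scaling, without scaling, without the filter, in DESeq2 or with the replicate block, and 0 to 2 with 1 library left out. For the interaction, 0 passed, against 1 without the filter, with a filter at 1 CPM, in DESeq2 or with the block, and 0 to 1 with 1 library left out. Between the days in WT recipients, 5 passed, and 3 at 2-fold. Of the pathway genes, 26 passed on Day 3 (13 at 2-fold, 17 to 32 with 1 library left out), 17 on Day 5 (4 at 2-fold, 27 blocked, 9 in the Day 5 libraries alone, 7 to 18 with 1 left out), 7 in the interaction (17 unfiltered, 13 in DESeq2, 16 blocked, 3 to 8 with 1 left out), and 42 and 50 between the days in WT and Il6-/- recipients (21 and 24 at 2-fold). Of all genes, 1861 passed on Day 3 (372 at 2-fold, 942 to 2042 with 1 left out), 626 on Day 5 (155 at 2-fold, 1397 unfiltered, 1127 in DESeq2, 1592 blocked, 359 in the Day 5 libraries alone, 225 to 1169 with 1 left out), 668 in the interaction (1300 unfiltered, 1132 in DESeq2, 1564 blocked, 235 to 943 with 1 left out), and 7688 and 8211 between the days (2996 and 3509 at 2-fold). The sign turned for the Runx3 interaction (-0.03, but 0.00016 with upper-quartile scaling, 0.066 without scaling, -0.11 to 0.062 with 1 library left out) and for Tbx21 between the days in WT recipients (0.07, but -0.00067 unfiltered, -0.070 in limma-voom, -0.17 to 0.40 with 1 left out). With 1 library left out it also turned for Hopx (-0.049 to 0.30) and Il12rb2 (-0.68 to 0.067) between recipients on Day 5 and for Il12rb2 between the days in WT recipients (-0.0068 to 0.74). Without scaling, the levels of Runx3 in Il6-/- recipients were 12.4 on Day 3 and 8.59 on Day 5, and that of Ifng on Day 3 was 0.720 CPM per kilobase. With exon bases shared with counted genes left out of the length, which raises a level by construction, Hopx stood at 7.75 and 12.3 on Day 3 and 33.1 and 36.3 on Day 5, and Il12rb2 at 0.956 and 1.74 and at 1.27 and 0.992, in WT and Il6-/- recipients. The share of calls that were higher was 54.9% on Day 3 (44.8% with upper-quartile scaling, 39.3% unscaled), 27.5% on Day 5 (40.8% unscaled), 36.5% in the interaction (47.2% and 64.8%), and 52.1% and 50.2% between the days in WT and Il6-/- recipients (66.5% and 65.0% with upper-quartile scaling, 60.4% unscaled in the latter). The causes were not tested. Eomes could not be tested in the 6 Day 3 libraries alone. On Day 3, where the r of same-numbered libraries was lower than on Day 5, each library still correlated best with its own number in 3 of 3 pairs.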
